A study of Mus musculus with 6 samples.

Results

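The clustered replication-dependent histone genes supply the H1, H2A, H2B, H3 and H4 proteins with which newly copied DNA is packed. They were taken as every gene symbol that begins with Hist1h, Hist2h, Hist3h or Hist4h and does not carry the pseudogene mark "-ps", which gave 69 of the 51826 gene symbols measured. Of these, 6 were H1 genes, 20 H2A, 18 H2B, 12 H3 and 13 H4. The Hist1 symbols, all on chromosome 13, numbered 56, and the Hist2, Hist3 and Hist4 symbols 10, 2 and 1. Hist1h2al (51202727 to 51203065) lies apart from the other Hist1 genes. The gene annotation lists 2 of the 69, Hist1h2aj and Hist1h2al, as pseudogenes, and they were kept because the symbol alone decided.

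Basal cells of the mammary gland, the outer, contractile layer of its epithelium, were sorted into GFPpos and GFPneg fractions from C57B6/N mice at postnatal day 24, during puberty. All mice carried SMAcreERT2, a tamoxifen-dependent Cre recombinase driven by the smooth muscle actin promoter, together with N1ICD, the active intracellular domain of the Notch1 receptor. All had received 1 dose of tamoxifen at day 21, 72 hours before the cells were taken, so genotype and drug were the same in both fractions and no library came from mice without the allele. Each of 3 replicates was a pool of 2 to 3 mice that gave 1 GFPpos and 1 GFPneg library. The pool, not the mouse, is therefore the unit whose spread p-values measure. The series asks how Notch activation redirects the fate of mammary cells, and the histone genes are compared here between the fractions.

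Replication-dependent histone genes are transcribed mainly while DNA is copied in S phase, and they typically lack introns. Their mRNAs normally end in a conserved stem-loop rather than a poly(A) tail, and stem-loop binding protein (Slbp) holds that stem-loop and governs processing, translation and decay. The level of these mRNAs in a tissue is therefore widely read together with proliferation. The histone proteins H2A, H2B, H3 and H4 form the nucleosome core, and H1 binds the linker DNA between nucleosomes.

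The stem-loop is shown first because it is the feature that sets these transcripts apart, and because a library made by poly(A) selection would see them differently from one that is not. How RNA was selected for the libraries is not given in the sources used here. A search of the GENCODE M21 transcripts (assembly GRCm38) for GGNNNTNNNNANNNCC with complementary arms after the stop codon found it in 46 of the 69 genes. The same search found it in 134 of 21347 other genes with a protein-coding transcript within the length range of the members (312 to 7425 bases), or 0.628%. By class the stem-loop was found in 4 of 6 H1, 11 of 20 H2A, 10 of 18 H2B, 9 of 12 H3 and 12 of 13 H4 genes. Of the 23 genes without it, 15 have gene models that end within 20 bases of the stop codon, which leaves little or nothing to search. Another 2, the annotated pseudogenes, have no stop codon annotated and were searched over their whole length without a match. In the lines that follow, the arms of the stem are in capitals and the loop and 5 bases on either side are in lower case.
Hist1h1e: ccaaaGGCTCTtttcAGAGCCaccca
Hist1h1c: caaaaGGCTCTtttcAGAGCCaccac
Hist2h2ac: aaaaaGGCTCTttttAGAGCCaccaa
Hist1h2bb: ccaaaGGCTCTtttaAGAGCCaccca
Hist1h3e: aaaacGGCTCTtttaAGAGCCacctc
Hist1h3d: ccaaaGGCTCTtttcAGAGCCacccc
Hist1h4d: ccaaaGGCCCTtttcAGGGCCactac
Hist1h4h: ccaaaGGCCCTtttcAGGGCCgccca
Hist4h4: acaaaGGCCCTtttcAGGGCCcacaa
All 34 stem-loops of H1, H2A, H2B and H3 genes had the same left arm, GGCTCT, and none of the 12 H4 stem-loops had it. The left arm of the H4 genes printed above read GGCCCT. The loop read tttc in 35 of the 46. The stem-loop began 21 to 58 bases after the stop codon, with a median of 31.

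The promoters also differ between the classes in the short motifs they hold. RefSeq promoter sequences (GRCm38.p6) were matched for 62 of the 69 genes, and a window of 250 bases before and 50 bases after the start was searched on both strands for 5 short motifs. AAACACA, the H1 box, was in 5 of 6 H1, 2 of 18 H2A and 2 of 16 H2B promoters, in no H3 or H4 promoter, and in 7.14% of all 27025 RefSeq promoters. ATTTGCAT, the octamer, was in 7 of 18 H2A and 6 of 16 H2B promoters, in no other class, and in 1.75% of all promoters. CCAAT was in all 6 H1, all 18 H2A, all 16 H2B and all 10 H3 promoters but in 3 of 12 H4 promoters, against 37.9% of all. GTCCG was in all 12 H4 promoters, but also in 8 of 18 H2A, 5 of 16 H2B and 1 of 10 H3 promoters, against 23.5% of all. TATAAA was in 35 of the 62 against 14.2%. A match is a description of the letters and not evidence of a bound site. The 200 bases before the start of 4 abundant members are printed with every match in capitals on either strand, at chr13:23622559-23622758 (minus strand) for Hist1h1e, chr13:23746534-23746733 (plus strand) for Hist1h2bb, chr13:23562386-23562585 (minus strand) for Hist1h3e and chr13:23581368-23581567 (plus strand) for Hist1h4d.
Hist1h1e: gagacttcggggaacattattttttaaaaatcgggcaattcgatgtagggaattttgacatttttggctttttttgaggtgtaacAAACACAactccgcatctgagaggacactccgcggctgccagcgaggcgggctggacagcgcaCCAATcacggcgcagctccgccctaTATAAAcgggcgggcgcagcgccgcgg
Hist1h2bb: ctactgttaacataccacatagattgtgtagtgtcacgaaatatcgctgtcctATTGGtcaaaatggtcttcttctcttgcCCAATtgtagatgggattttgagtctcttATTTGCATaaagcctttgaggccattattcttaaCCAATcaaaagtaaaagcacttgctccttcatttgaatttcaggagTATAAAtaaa
Hist1h3e: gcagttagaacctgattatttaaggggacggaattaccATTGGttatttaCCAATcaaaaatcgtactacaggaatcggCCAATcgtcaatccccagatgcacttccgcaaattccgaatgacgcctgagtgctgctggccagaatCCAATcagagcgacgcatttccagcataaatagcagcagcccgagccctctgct
Hist1h4d: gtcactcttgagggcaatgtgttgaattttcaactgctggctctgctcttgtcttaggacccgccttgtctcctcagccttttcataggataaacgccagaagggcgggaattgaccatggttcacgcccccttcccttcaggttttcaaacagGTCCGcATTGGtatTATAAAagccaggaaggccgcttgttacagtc
Hist1h1e shows the H1 box ahead of CCAAT and TATAAA, and Hist1h2bb the octamer between CCAAT matches. Hist1h3e holds CCAAT matches on both strands, and Hist1h4d has GTCCG directly ahead of its CCAAT and TATAAA matches. Among the 69 genes, 13 pairs lie head to head with starts 175 to 305 bases apart, and all 13 join an H2A to an H2B gene.

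Depth sets what can be read from the libraries. GFPneg replicate 1 held 611465 gene counts and the other 5 libraries 9912610 to 16043492. In GFPneg replicate 1 the histone genes had 57 counts over 6 genes. The other libraries had 12785 (GFPneg replicate 2), 1343 (GFPneg replicate 3), 11358, 16034 and 12857 (GFPpos replicates 1, 2 and 3) histone counts over 61, 26, 56, 62 and 55 genes. Values are given as CPM, a gene's counts scaled to a common library size with edgeR's TMM factors, which were 0.501 in GFPneg replicate 1 and 1.05 to 1.22 elsewhere. One count was worth 3.28 CPM in GFPneg replicate 1, so that 0 counts there allow up to 9.84 CPM (3 counts), and 0.0513 to 0.0911 CPM in the others. At the histone level of GFPneg replicate 3 the depth of GFPneg replicate 1 would have given 37.3 histone counts, and at that of the GFPpos libraries 204 to 380. Intervals and floors cover counting error only. In GFPneg replicate 1, ribosomal mt-Rnr1 and mt-Rnr2 with Gm42418, Gm26917 and Gm23935, 5 abundant noncoding entries, took 69.2% of gene counts, against 22.7% to 34.7% elsewhere.

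Of the 69 genes, 64 had at least 1 count. Hist1h2aa, Hist1h4m, Hist2h2aa1, Hist2h3c1 and Hist2h3c2 were at 0 in all 6 libraries, and 12 genes, these included, had under 10 counts in all. The plot of levels by gene and library shows a few abundant genes in each class and a long tail. Hist1h1e alone took 19.8% of the 54434 histone counts, Hist1h1c 14.0%, Hist1h1b 10.3% and Hist1h4d 8.79%.

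**Figure D1:**
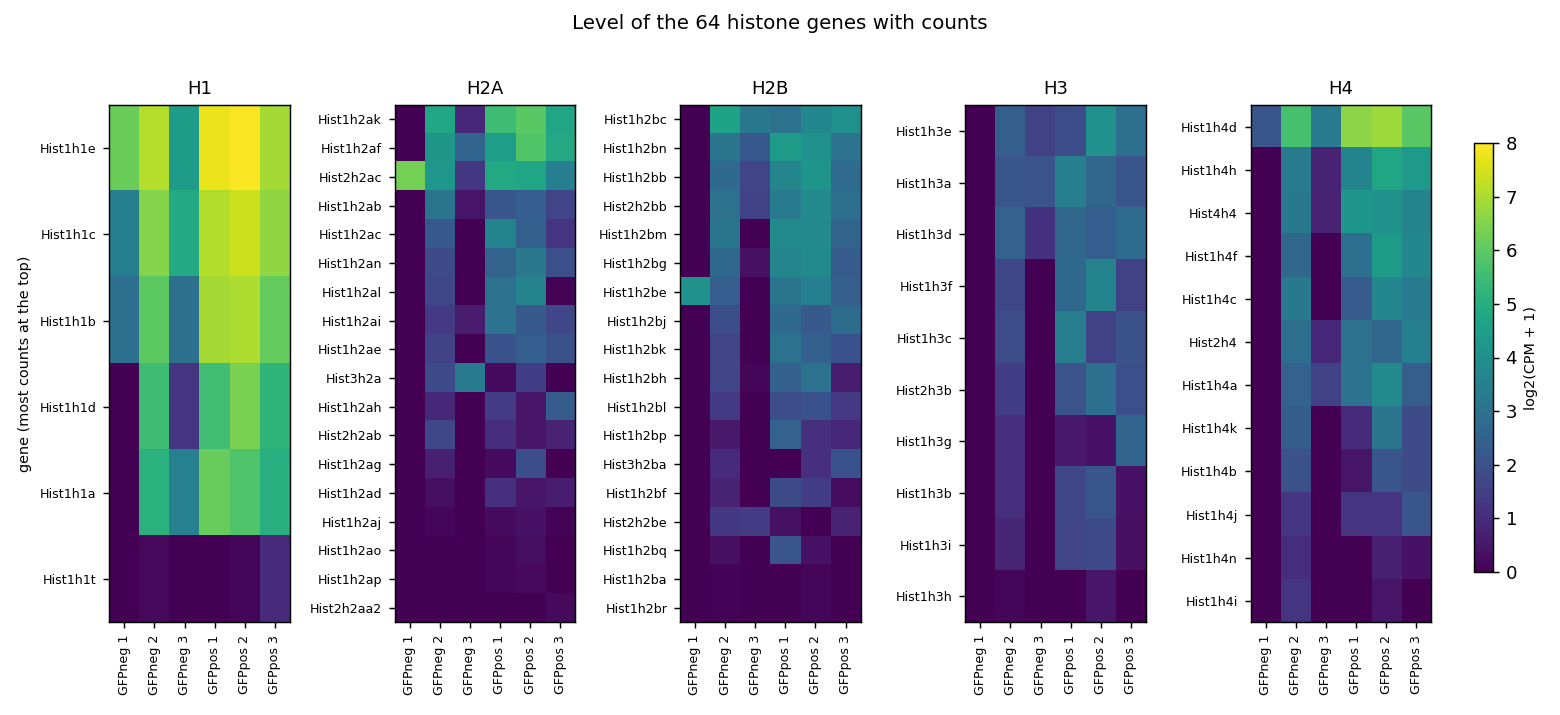
Level of the 64 histone genes with counts as log2(CPM + 1), 1 panel per class, genes in rows and the 6 libraries in columns. The GFPneg replicate 1 and GFPneg replicate 3 columns are the darkest, with 6 and 26 genes detected, against 55 to 62 in the 3 GFPpos columns.

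Histone transcripts had a higher summed level in GFPpos than in GFPneg in every pool, though replicate 1 rests on few GFPneg counts. Summed over the 69 genes, they reached 187, 656 and 122 CPM in GFPneg replicates 1, 2 and 3 and 1029, 1248 and 667 CPM in GFPpos replicates 1, 2 and 3. The lowest GFPpos library (667) and the highest GFPneg library (656) almost touched, but the groups did not overlap. The means were 322 ± 291 (SD, n = 3) and 981 ± 293 CPM (SD, n = 3), a ratio of 3.05. Within pools the ratio was 5.51 (95% exact counting interval 4.25 to 7.27) in replicate 1, 1.90 (1.86 to 1.95) in replicate 2 and 5.45 (5.16 to 5.77) in replicate 3. The GFPneg sum of replicate 1 rests on 57 counts, 24 of Hist2h2ac and 22 of Hist1h1e. Genes in general were higher in GFPpos in that pair, with a median log2 ratio of 1.34 (CPM + 1) over all genes tested. Its ratio is therefore not particular to the histone genes. GFPneg replicate 2 stood far above the other GFPneg libraries, and replicate 2 had the highest level in both fractions. In bulk RNA a larger share of cells in S phase and more histone RNA per cell cannot be told apart.

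**Figure D2:**
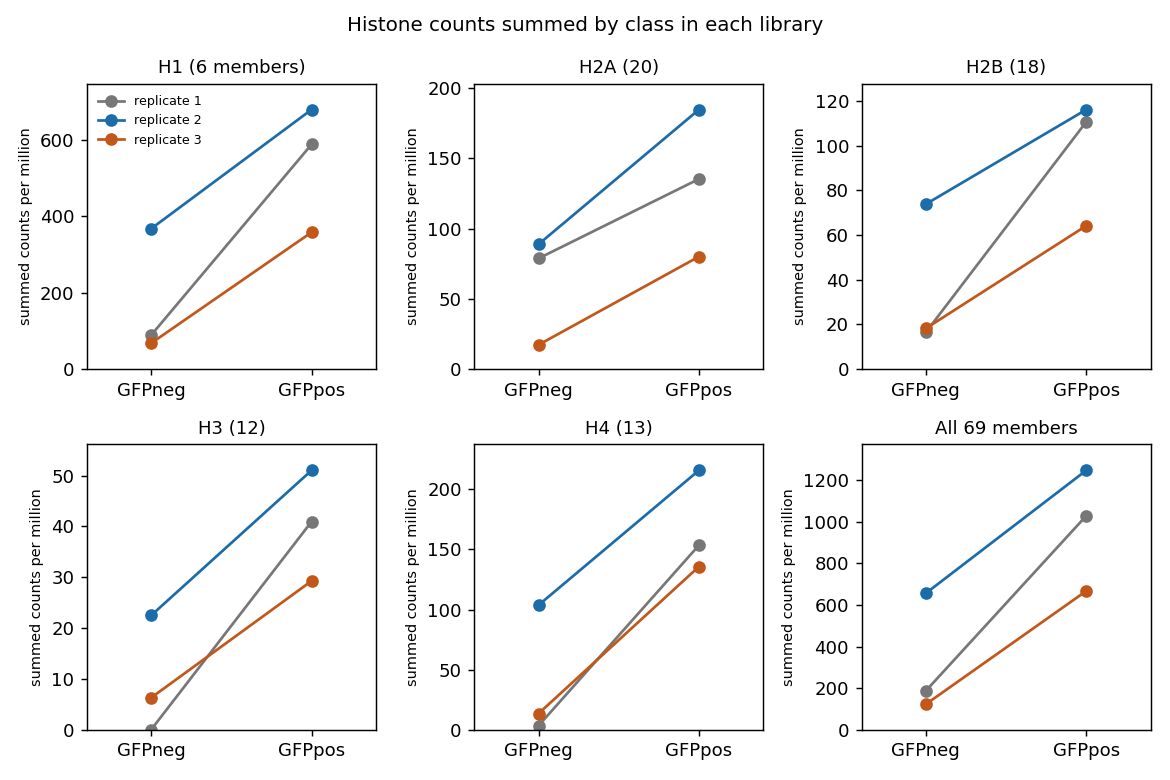
CPM summed over the members of each histone class and over all 69 genes, for each library, with lines linking the GFPneg and GFPpos libraries of 1 replicate. Every line slopes upward, and GFPneg replicate 2 (656 CPM over all 69) lies above the other 2 GFPneg libraries.

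A test was made on single genes with edgeR's quasi-likelihood test across all 13873 genes that passed its filter on low counts. It held 47 of the 69 genes (5 H1, 11 H2A, 13 H2B, 8 H3 and 10 H4). A gene counted only in the GFPpos libraries can pass this filter, so the counts over these 47 describe them and support nothing further. None of the 47 passed an adjusted p of 0.05 (Benjamini-Hochberg over all genes), where 0.0577% of all genes were called higher and 0.00721% lower in GFPpos. The smallest adjusted p was 0.736, for Hist1h4d, and DESeq2 without a block and limma-voom also called 0. At an unadjusted p under 0.05, 5 of the 47 were higher (Hist1h4d, Hist1h1b, Hist1h1c, Hist1h1e and Hist1h2af) and 0 lower, against 2.38% of all genes higher. The fitted log2 fold change was above 0 for 44 of 47, with a median of 1.79, and above 0 for 57.5% of all genes, with a median of 0.15. The 3 GFPpos libraries all lay above the 3 GFPneg libraries in CPM for 15 of the 47 (31.9%) against 9.53% of all genes, and all below for 0 against 3.63%. For 9 of the 15 this rests on 0 counts in GFPneg replicate 1, which allow 9.84 CPM, more than their lowest GFPpos value. With GFPneg zeros set to their 3-count floor, 6 of the 47 remained (Hist1h1b, Hist1h1c, Hist1h2af, Hist1h4d, Hist1h4h and Hist4h4), against 6.5% of all genes.

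Both fractions of a replicate came from 1 pool, so a fit with the replicate as a block was also made. Its p-values measure the spread of the within-pool differences. With the block, edgeR called 1 of the 47 genes higher, Hist1h1b (log2 fold change 2.69, adjusted p = 0.0439), where 0.31% of all genes were called higher and 0.13% lower. DESeq2 with the block called 3 of 64 (Hist1h1b, Hist1h1d and Hist1h2ak, adjusted p = 0.0390, 0.0470 and 0.0377), against 0.311% of all genes higher and 0.364% lower. With the block and without replicate 1, whose GFPneg library is the shallow one, edgeR called 9 of 52 higher and 0 lower, against 2.52% of all genes higher and 1.41% lower. These 9 were 4 H1 genes (Hist1h1b, Hist1h1c, Hist1h1d and Hist1h1e), 2 H2A genes (Hist1h2af and Hist1h2ak) and 3 H4 genes (Hist1h4d, Hist1h4f and Hist1h4h). No H2B or H3 gene was among them. That fit holds 2 pairs, so its p-values borrow most of their spread from the other genes fitted. Summed by class, the ratio in replicates 2 and 3 was 2.08 and 4.67 for H2A, 1.57 and 3.54 for H2B and 2.27 and 4.66 for H3.

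The linker histones made up most of the histone RNA counted, from 53.7% to 57.2% of histone counts in the 5 deeper libraries. In sum they stood at 88.5, 368 and 67.4 CPM in GFPneg replicates 1, 2 and 3 and 589, 680 and 358 CPM in GFPpos replicates 1, 2 and 3. GFPneg replicate 2 lay just above GFPpos replicate 3, so the groups overlapped. The ratio within pools was 6.65 (95% exact interval 4.57 to 10.1), 1.85 (1.79 to 1.91) and 5.31 (4.92 to 5.74) for replicates 1, 2 and 3.

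Hist1h1e (chromosome 13, 23620629 to 23622558) encodes a somatic linker histone and was the most counted gene of the set. It stood at 72.1, 136 and 20.3 CPM in GFPneg and 218, 246 and 120 CPM in GFPpos replicates 1, 2 and 3. The groups overlapped through GFPneg replicate 2 (log2 fold change 1.35, SE 0.58, edgeR adjusted p = 0.850), and the gene passed in the block without replicate 1 (1.72, adjusted p = 8.2e-05). Its model overlaps that of Hist1h2be, and how shared reads were assigned is not given in the sources used here. Hist1h1c (chromosome 13, 23738808 to 23740367), another somatic linker histone, was at 9.84, 90.5 and 28.9 CPM in GFPneg and 134, 168 and 100.02 CPM in GFPpos. Here the groups did not overlap (log2 fold change 1.54, SE 0.60, edgeR adjusted p = 0.825; 1.36, adjusted p = 0.00380 in the block without replicate 1). Hist1h1b (chromosome 13, 21779883 to 21780625) was at 6.56, 62.3 and 6.74 CPM in GFPneg and 120, 129 and 67.8 CPM in GFPpos. All 3 GFPpos values lay above all 3 GFPneg values (log2 fold change 1.94, SE 0.73, edgeR adjusted p = 0.759), and Hist1h1b was the 1 member called both by edgeR and by DESeq2 with the block on all 6 libraries. Its value in the block without replicate 1 was 2.16 (adjusted p = 4.4e-06).

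The remaining H1 genes were named after their values were seen. Hist1h1d was at 0, 45.2 and 1.37 CPM in GFPneg and 45.7, 82.9 and 36.7 CPM in GFPpos, and its ratio of 26.9 in replicate 3 was above those of Hist1h1b (10.1), Hist1h1e (5.93) and Hist1h1c (3.46). The ratio of Hist1h1d rests on 15 counts in GFPneg replicate 3. Hist1h1a was at 0, 33.5 and 10.1 CPM in GFPneg and 70.0, 54.1 and 32.3 CPM in GFPpos. Both overlapped between groups. Hist1h1t, the testis linker histone, had 22 counts in all. Per kilobase of exonic length the GFPpos mean level of Hist1h1b (142 CPM per kb) was the highest of the 69, followed by Hist1h2ak at 111, Hist1h1e at 101, Hist1h2af at 87.4 and Hist1h1c at 85.9. The order between genes depends on model length: Hist1h1d, whose model runs 4931 bases past its stop codon, came to 7.42.

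The H2A genes summed to 78.7, 88.8 and 17.1 CPM in GFPneg and 135, 185 and 79.99 CPM in GFPpos replicates 1, 2 and 3, and the groups overlapped. The 24 H2A counts in GFPneg replicate 1 were all assigned to Hist2h2ac. Without that gene, left out after its values were seen, the sums were 0, 70.5 and 15.7 CPM in GFPneg and 108, 159 and 70.0 CPM in GFPpos. The ratio was then 2.26 in replicate 2 and 4.47 in replicate 3, and at least 10.9 in replicate 1 against the floor of 3 counts. The groups then overlapped by less than 1 CPM, with GFPneg replicate 2 at 70.5 and GFPpos replicate 3 at 70.0.

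Hist1h2ak (chromosome 13, 21753435 to 21753827), a core H2A gene, was at 0, 26.3 and 0.911 CPM in GFPneg and 44.8, 60.8 and 25.4 CPM in GFPpos. GFPneg replicate 2 reached the lowest GFPpos library, while GFPneg replicate 3 was 27.9-fold under its partner (log2 fold change 2.03, SE 1.00, edgeR adjusted p = 0.994; 2.78, adjusted p = 6.9e-05 in the block without replicate 1). GFPneg replicate 3 held 10 counts of Hist1h2ak. Hist1h2af (chromosome 13, 23533906 to 23534304) was at 0, 17.8 and 5.10 CPM in GFPneg and 21.02, 56.2 and 27.5 CPM in GFPpos, with no overlap (log2 fold change 1.94, SE 0.86, edgeR adjusted p = 0.906). Of its 75-base stretches, 86.8% also occur in another gene, so its reads may belong to copies. Hist2h2ac (chromosome 3, 96220361 to 96220880) ran the other way in replicate 1, at 78.7, 18.3 and 1.46 CPM in GFPneg and 27.7, 25.4 and 9.97 CPM in GFPpos. Its fitted log2 fold change was -0.47 (SE 1.01, edgeR adjusted p = 1.00), and it turned to 1.09 without GFPneg replicate 1.

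Hist3h2a, named after its values were seen, was the 1 tested member with a lower GFPpos than GFPneg level in both deeper pairs, at 0, 2.57 and 8.75 CPM in GFPneg and 0.181, 1.79 and 0 CPM in GFPpos (log2 fold change -2.71, SE 1.74, edgeR adjusted p = 1.00). Its model on chromosome 11 (58954685 to 58956830) overlaps Trim17, with which it shares 30.7% of its 75-base stretches. All 20 H2A genes are overlapped by another annotated gene, 19 of them by a miRNA entry on the opposite strand. Whether counting used strand is not given in the sources used here.

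The H2B genes summed to 16.4, 73.8 and 18.1 CPM in GFPneg and 111, 116 and 64.1 CPM in GFPpos replicates 1, 2 and 3, with GFPneg replicate 2 above GFPpos replicate 3. The ratio within pools was 6.75 (95% exact interval 2.88 to 20.8), 1.57 (1.46 to 1.69) and 3.54 (3.04 to 4.13). The 5 counts in GFPneg replicate 1 were all assigned to Hist1h2be, the gene whose model overlaps Hist1h1e.

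Hist1h2bc (chromosome 13, 23684199 to 23692908), the most counted H2B gene, did not follow its class, at 0, 24.0 and 8.29 CPM in GFPneg and 7.07, 12.4 and 15.001 CPM in GFPpos. Its highest library was GFPneg replicate 2, and its ratio was 0.516 in replicate 2 and 1.81 in replicate 3 (log2 fold change -0.08, SE 0.95, edgeR adjusted p = 1.00). Its model is spliced, with 1156 exonic bases in the span given above. The model has 742 bases past the stop codon, and no stem-loop was found in it. Hist1h2bn (chromosome 13, 21754123 to 21754503) was at 0, 7.44 and 3.64 CPM in GFPneg and 19.9, 15.6 and 7.32 CPM in GFPpos. GFPneg replicate 2 lay just above GFPpos replicate 3 (log2 fold change 1.65, SE 0.98, edgeR adjusted p = 1.00). Hist1h2bb (chromosome 13, 23746734 to 23747241), whose promoter with the octamer is printed above, was at 0, 5.60 and 2.19 CPM in GFPneg and 11.4, 16.7 and 5.97 CPM in GFPpos (log2 fold change 1.79, SE 1.05, edgeR adjusted p = 1.00). Its GFPpos values lay above those of GFPneg replicates 2 and 3, but the lowest is under what 0 counts allow in GFPneg replicate 1.

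The members of head-to-head pairs did not always have like ratios. In replicate 3 the log2 ratio of GFPpos to GFPneg, on CPM + 1, was 3.79 for Hist1h2ak and 0.84 for Hist1h2bn, whose starts lie 295 bases apart. In replicate 2 it was 1.18 and 0.97. For Hist1h2ae and Hist1h2bg, 175 bases apart, it was 1.99 for both in replicate 3 and 0.74 and 1.09 in replicate 2. These ratios are from 1 pool each and carry no test.

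The H3 genes were the least counted class and did not overlap between groups in sum. The class stood at 0, 22.5 and 6.29 CPM in GFPneg and 41.0, 51.0 and 29.3 CPM in GFPpos replicates 1, 2 and 3. The ratio was at least 4.16 in replicate 1 against the floor of 3 counts, 2.27 (95% exact interval 2.01 to 2.57) in replicate 2 and 4.66 (3.62 to 6.07) in replicate 3. Single H3 genes were low. In 7 of the 8 tested the groups overlapped, and the share wholly higher in GFPpos (12.5%) was near the 9.53% of all genes. The exception, Hist2h3b (named after its values were seen), was at 0, 1.75 and 0 CPM in GFPneg and 3.17, 6.54 and 2.91 CPM in GFPpos, under what 0 counts allow in GFPneg replicate 1. Hist1h3e (chromosome 13, 23561534 to 23562369), which encodes core histone H3, was at 0, 4.31 and 1.91 CPM in GFPneg and 2.72, 15.4 and 6.59 CPM in GFPpos (log2 fold change 1.65, SE 1.17, edgeR adjusted p = 1.00). Its lowest GFPpos value, in replicate 1, fell within the GFPneg range. Hist1h3a (chromosome 13, 23761853 to 23762386) was at 0, 3.34 and 3.10 CPM in GFPneg and 9.60, 5.29 and 3.32 CPM in GFPpos, and Hist1h3d (chromosome 13, 23575763 to 23577011) at 0, 4.77 and 1.28 CPM in GFPneg and 5.26, 4.28 and 5.92 CPM in GFPpos. For both, GFPneg replicate 2 lay above the lowest GFPpos library (log2 fold changes 1.19, SE 1.19, and 1.04, SE 1.24, edgeR adjusted p = 1.00 for both).

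H4 differed between the 2 deeper pools in the size of its ratio. Their sum was 3.28, 104 and 13.4 CPM in GFPneg and 154, 216 and 136 CPM in GFPpos replicates 1, 2 and 3, with no overlap. The ratio was 2.08 (95% exact interval 1.97 to 2.21) in replicate 2 and 10.1 (8.58 to 12.1) in replicate 3. In replicate 1 it was 46.8 with an interval of 8.40 to 1851, since GFPneg replicate 1 held 1 H4 count. H4 took 10.9% of histone counts in GFPneg replicate 3 and 20.3% in GFPpos replicate 3, and 15.8% and 17.3% in the replicate 2 libraries.

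Hist1h4d (chromosome 13, 23581598 to 23582735), which encodes core histone H4, had the smallest p of the set. It was at 3.28, 50.4 and 9.11 CPM in GFPneg and 97.7, 112 and 61.5 CPM in GFPpos, with no overlap (log2 fold change 1.958, SE 0.71, edgeR adjusted p = 0.736; 1.95, adjusted p = 5.4e-05 in the block without replicate 1). Little of its sequence (3.66% of 75-base stretches) occurs in other genes. Hist1h4h (chromosome 13, 23531050 to 23531519) was at 0, 9.14 and 0.729 CPM in GFPneg and 11.1, 24.9 and 18.5 CPM in GFPpos (log2 fold change 2.14, SE 1.06, edgeR adjusted p = 0.994; 2.92, adjusted p = 0.00893 in the block without replicate 1). Hist4h4 (chromosome 6, 136801553 to 136804415), the 1 member of the Hist4 locus, was at 0, 8.42 and 0.729 CPM in GFPneg and 17.4, 16.1 and 10.95 CPM in GFPpos (log2 fold change 1.95, SE 1.07, edgeR adjusted p = 1.00). Neither overlapped between groups. Hist1h4f, named after its values were seen, was at 0, 5.24 and 0 CPM in GFPneg and 6.52, 19.5 and 12.4 CPM in GFPpos.

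Among the 47 tested genes, the pools agreed in direction more than in size. In replicate 2, 39 of the 47 tested genes were higher in GFPpos, against 47.7% of all genes, with a median log2 ratio of 0.86 (CPM + 1) against -0.03. In replicate 3, 46 were higher, against 51.7%, with a median of 1.95 against 0.05. All 39 of replicate 2 were also higher in replicate 3, against 29.1% of all genes higher in both. The ratio was larger in replicate 3 than in replicate 2 for 36 of 47, against 53.5% of all genes. In replicate 1, 44 were higher, against 71.4% of all genes, with a median of 2.91 against 1.34: in that pair, with its shallow GFPneg library, genes in general were higher in GFPpos. By class, the median ratio in replicate 3 was 2.51 for H1, 1.95 for H2A, 1.33 for H2B, 1.46 for H3 and 2.58 for H4. In replicate 2 the class medians lay between 0.74 and 1.00. The 47 passed a filter that a gene counted only in GFPpos can pass. Members that did not pass it, some higher and some lower in GFPpos, are left out of these counts. Members also share reads and pools, so these are descriptions of the tested genes and not of the whole set.

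**Figure D3:**
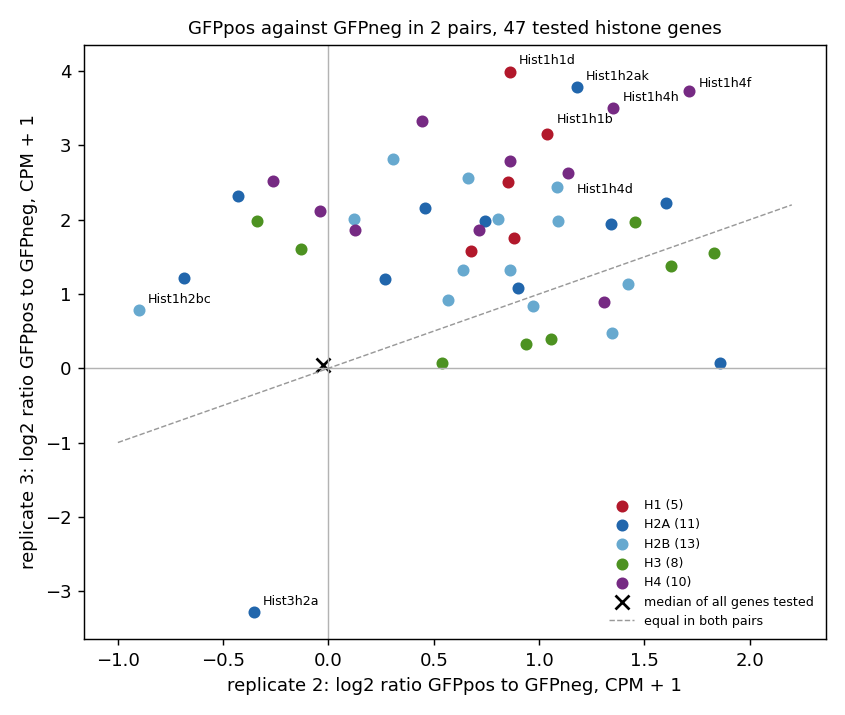
Log2 ratio of GFPpos to GFPneg on CPM + 1 in replicate 2 (x axis) and replicate 3 (y axis) for the 47 tested histone genes, coloured by class, with the median of all 13873 genes as a cross. Of the points, 39 lie above 0 on both axes and 36 above the line of equal ratios, and Hist3h2a lies alone below 0 in replicate 3.

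Near-identical copies and overlapping genes limit what single genes can show. A median of 45.7% of the 75-base stretches of a member occurred in another gene. By class this was 0.735% for H1, 71.5% for H2A, 42.2% for H2B, 59.0% for H3 and 24.6% for H4. Genes that overlap a member at its own locus count as another gene here, so these shares mix copies with overlap. Hist2h2bb and Hist2h3b, for example, share 100% with Gm20628, which overlaps both. Of the 17 genes with over 80% shared, 9 had under 10 counts in all, against 3 of the other 52. The deposited tables hold 0 reads in the row for reads with more than 1 alignment, and how those were treated is not given in the sources used here. Among the abundant members, Hist1h1b and Hist1h1a shared no such stretch with another gene, and Hist1h4d shared 3.66%. Gene models also differ: the 22 members with at least 300 bases past the stop codon were 4.67-fold higher in GFPpos in replicate 3 in sum, and the other 47 were 7.14-fold higher. In replicate 2 the ratios were 1.79 and 2.08.

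**Figure D4:**
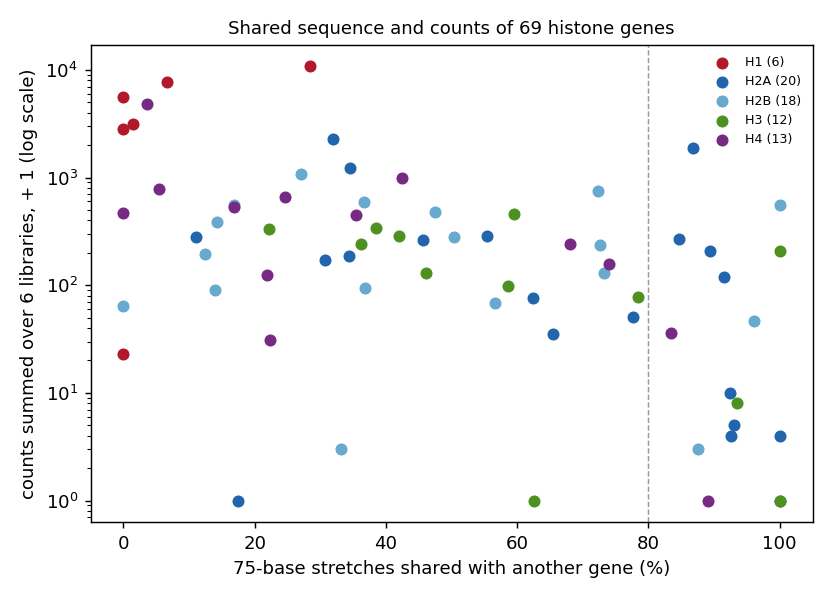
Percentage of each gene's 75-base stretches that also occur in another gene (x axis) against its counts summed over the 6 libraries plus 1 (y axis, log scale) for the 69 histone genes, coloured by class. To the right of the dashed line at 80% lie 17 genes, 9 of them under 10 counts.

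Other genes of the histone supply line were read from lists. The 27 S phase genes (among them replication factors, nucleotide enzymes and cyclins) summed to 525, 681 and 402 CPM in GFPneg and 1071, 1169 and 950 CPM in GFPpos replicates 1, 2 and 3, with no overlap. Of the 27, 23 had a fitted log2 fold change above 0 (median 1.19), against 57.5% of all genes (median 0.15), and 0 were called by edgeR on 6 libraries or with the block. With the block and without replicate 1, 8 were called higher (Mcm2, Mcm3, Mcm4, Rrm1, Ccna2, Pola1, Pole and Dut) and 0 lower, where 2.52% of all genes were called higher and 1.41% lower. Mcm3, a subunit of the replicative helicase, was at 13.1, 55.0 and 36.4 CPM in GFPneg and 85.4, 102 and 101 CPM in GFPpos. Rrm1, a subunit of ribonucleotide reductase, was at 78.7, 65.7 and 40.7 CPM in GFPneg and 103, 137 and 105 CPM in GFPpos, and Mcm6, another helicase subunit, at 6.56, 66.6 and 49.1 CPM in GFPneg and 121, 114 and 119 CPM in GFPpos. None of these overlapped between groups.

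Mki67, the gene of the proliferation marker Ki-67, was at 102, 403 and 113 CPM in GFPneg and 1015, 969 and 554 CPM in GFPpos. Its GFPneg replicate 2 level was the highest of that group and its GFPpos replicate 3 level the lowest of that one, as for the summed histone genes (log2 fold change 2.02, SE 0.52, edgeR adjusted p = 0.355; 2.27, adjusted p = 0.000896 with the block). Notch1, part of which the N1ICD allele encodes, was at 105, 177 and 267 CPM in GFPneg and 506, 459 and 423 CPM in GFPpos, with no overlap (log2 fold change 1.32, SE 0.41, edgeR adjusted p = 0.625). Its order between pools differed from that of the histone genes.

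Replication-independent histone genes, which are used outside S phase and whose mRNAs carry poly(A) tails, differed less in the deeper pools. The 11 genes summed to 62.3, 480 and 295 CPM in GFPneg and 521, 508 and 424 CPM in GFPpos, a ratio of 1.06 in replicate 2 and 1.44 in replicate 3, beside 1.90 and 5.45 for the 69 genes. In replicate 1 the ratio was 8.36, with 6 of the 11 at 0 counts in GFPneg. The groups overlapped. Of the 11, 10 had a fitted log2 fold change above 0 (median 0.72), against 57.5% of all genes (median 0.15), and 0 were called. H3f3b, which encodes the variant H3.3, was at 13.1, 167 and 109 CPM in GFPneg and 127, 143 and 110.0 CPM in GFPpos (log2 fold change 0.34, SE 0.59, edgeR adjusted p = 1.00), and its fitted value was -0.11 without GFPneg replicate 1. H1f0, a linker histone of resting and differentiated cells, was at 9.84, 79.3 and 49.8 CPM in GFPneg and 82.0, 74.4 and 86.0 CPM in GFPpos. H2afy, which encodes macroH2A, was at 13.1, 79.2 and 74.6 CPM in GFPneg and 83.3, 73.4 and 69.04 CPM in GFPpos, with a fitted value of 0.36 on all libraries and -0.01 without GFPneg replicate 1. For these 3 genes the low value was that of GFPneg replicate 1, where they had 3 or 4 counts each.

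**Figure D5:**
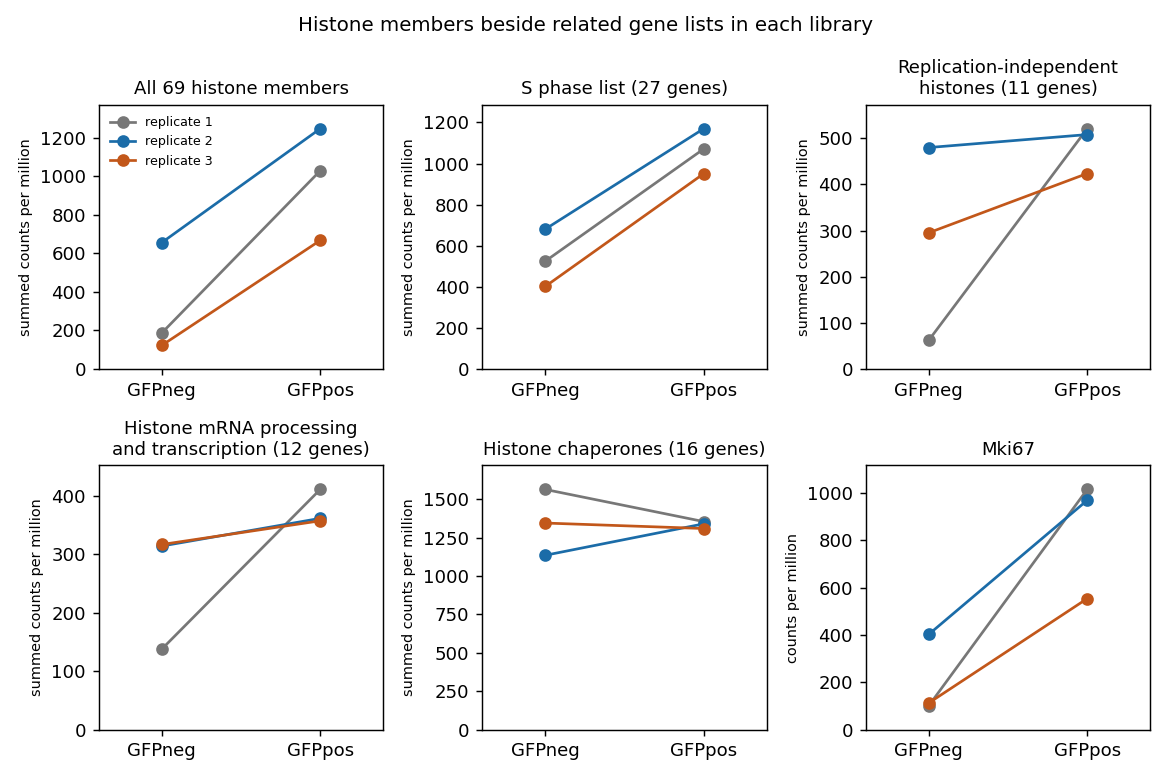
Summed CPM of the 69 histone genes, of 4 related lists and of the single gene Mki67 in each library, with lines linking the 2 fractions of a replicate. All panels but that of the chaperones, which lies between 1136 and 1564, are higher in GFPpos in all 3 replicates; in replicate 2 the replication-independent histones go from 480 to 508.

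The genes that make and mature histone mRNA showed no call. The 12 processing and transcription factors summed to 138, 314 and 316 CPM in GFPneg and 410, 361 and 357 CPM in GFPpos. The ratio was 2.98, 1.15 and 1.13 in replicates 1, 2 and 3, and 6 of the 12 were at 0 counts in GFPneg replicate 1. Of the 12, 10 had a fitted log2 fold change above 0 (median 0.40), against 57.5% of all genes (median 0.15), and 0 were called. Slbp was at 55.7, 30.4 and 45.6 CPM in GFPneg and 37.6, 29.6 and 29.7 CPM in GFPpos (log2 fold change -0.41, SE 0.57, edgeR adjusted p = 1.00), so the stem-loop binding protein's mRNA was no higher in GFPpos in any pool. Npat, the coactivator of histone gene transcription, was at 3.28, 26.4 and 31.8 CPM in GFPneg and 24.4, 27.5 and 25.7 CPM in GFPpos (log2 fold change 0.22, and -0.15 without GFPneg replicate 1). Cpsf3, the nuclease that cuts histone pre-mRNA, was at 0, 38.6 and 24.4 CPM in GFPneg and 44.6, 48.4 and 62.4 CPM in GFPpos, and Sympk, a scaffold of the cleavage complex, at 36.1, 79.9 and 72.4 CPM in GFPneg and 134, 102 and 86.3 CPM in GFPpos. Neither overlapped between groups, and edgeR gave both an adjusted p of 1.00. Cstf2, a cleavage stimulation factor, was at 13.1, 32.8 and 36.3 CPM in GFPneg and 47.6, 43.3 and 28.2 CPM in GFPpos, and overlapped.

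The 16 histone chaperones, which carry histones to DNA, summed to 1564, 1136 and 1345 CPM in GFPneg and 1355, 1340 and 1310 CPM in GFPpos. Of the 16, 8 had a fitted log2 fold change above 0 (median 0.05), against 57.5% of all genes (median 0.15), and 0 were called. Ssrp1, a subunit of the FACT complex, was at 16.4, 132 and 121 CPM in GFPneg and 151, 221 and 192 CPM in GFPpos, without overlap (log2 fold change 1.00, SE 0.55, edgeR adjusted p = 1.00). Its partner Supt16 was at 180, 137 and 96.0 CPM in GFPneg and 220, 154 and 135 CPM in GFPpos. Atrx, a remodeller that acts with H3.3, was at 515, 327 and 408 CPM in GFPneg and 329, 346 and 397 CPM in GFPpos. Asf1b, the S phase form of the H3 and H4 chaperone Asf1, was low, at 0, 3.23 and 0 CPM in GFPneg and 3.17, 6.07 and 1.09 CPM in GFPpos.

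Cell type markers also differed in level between the fractions. Basal markers (10 of 10 detected, among them Krt5, Krt14 and Acta2) summed to 8876, 13946 and 11821 CPM in GFPneg and 8032, 7026 and 6726 CPM in GFPpos, so the labelled cell type was present in all libraries. Luminal markers (10 of 10 detected) ranged from 131 to 274 CPM in GFPneg and 452 to 609 in GFPpos. The 131 CPM is that of GFPneg replicate 1, where 7 of the 10 were at 0 counts. Fibroblast markers, with Lum and Mfap5 at 0 throughout, ranged from 689 to 1681 CPM in GFPneg and 240 to 380 in GFPpos. Pericyte markers summed to 59.0, 174 and 231 CPM in GFPneg and 432, 293 and 839 CPM in GFPpos, with 6 of the 8 at 0 counts in GFPneg replicate 1. Endothelial markers summed to 1439, 1123 and 843 CPM in GFPneg and 1008, 914 and 2558 CPM in GFPpos, lower in GFPpos in replicates 1 and 2 and higher in replicate 3. Immune markers, with Csf1r and Cd52 at 0 throughout, ranged from 7.70 to 32.8 CPM in GFPneg and 5.62 to 24.8 in GFPpos. No marker was called by edgeR on 6 libraries. Kit, a luminal marker, was called higher with the block, where 0.31% of all genes were called higher. The fit with the block and without replicate 1, which called 9 histone genes, called 2.52% of all genes higher and 1.41% lower. Its calls higher were Krt19 and Kit (of 10 luminal markers tested), Pecam1, Cdh5 and Eng (of 10 endothelial) and Cspg4, Notch3 and Des (of 7 pericyte). Called lower were Acta2 and Cnn1 (of 10 basal) and Dcn and Postn (of 6 fibroblast). Their part in the histone difference was not tested.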

How the data were processed

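The 6 libraries were made from total RNA, and whether poly(A) RNA was then selected is not given in the sources used here. Per the labels each replicate gave a GFPpos and a GFPneg library from 1 pool. For each library the authors deposited whole-number counts of 51826 symbols, followed by 5 summary rows. The genome build mm10 and the tools HTSeq, TopHat2, cutadapt and FastQC are named per the submitters' processing notes. Their versions, the counting mode and the strand setting: not given in the sources used here. Summary rows entered neither library sizes nor tests. Reads with no feature were 66.4% of all rows in GFPneg replicate 1 and 28.8% to 40.5% elsewhere.

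The test was edgeR's quasi-likelihood F test (edgeR 4.0.16, R 4.3.3) with group as its 1 term, TMM scaling and the filterByExpr filter, over all genes, with Benjamini-Hochberg adjustment and a threshold of 0.05. The SE is the fold change divided by the square root of F. CPM used the TMM-scaled size of the filtered library. Log2 ratios of single genes within a pool used CPM + 1, and ratios not given as log2 used CPM with nothing added. Class sums and lists have no test. Alternatives were DESeq2 1.42.0, limma-voom (limma 3.58.1), other scalings and filters, the replicate block, and leaving out each library or replicate. The edgeR fit on 6 libraries, without and with the block, was also run on simulated counts. The other alternatives were not.

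Libraries of 1 replicate number came from 1 pool by the design, which makes them pairs. Their deviations from the group means had a correlation of -0.0155 in replicate 1, 0.0953 in replicate 2 and 0.0107 in replicate 3.

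The rule for named genes took, per class, the 3 members with the most counts, any called member, the 5 with the smallest p, the 3 most counted genes of each related list, and Slbp, Npat and Asf1b, with Mki67 and Notch1 for comparison. Members and lists were chosen with earlier results of these data known, and members named beyond the rule after their values were seen. Positions and transcripts came from GENCODE M21 (GRCm38), promoters from RefSeq (GRCm38.p6).

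The values of 1 marker list are not reported here.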

Additional observations from a re-analysis of the deposited data

Results flagged for a closer look

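The symbol Hist3h2bb-ps was left out of the 69 genes by its pseudogene mark, yet it had 7 counts in GFPpos replicate 1. It had 1 count in GFPneg replicate 2 and 0 in the other 4 libraries. Groups of 3 libraries are too small for a test of single libraries that stand apart.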

How the results depend on the processing

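No histone gene was called by edgeR without a block under any other scaling, filter or left-out library, nor by DESeq2 without a block or limma-voom. With the replicate block 1 was called higher, DESeq2 under the same block called 3, and the replicate block without replicate 1 called 9. Over all genes, 8 were called higher and 1 lower. Called higher were 5 with library size only, 65 without a filter, 51 with DESeq2, 77 with DESeq2 and the replicate block, 54 with limma-voom, 43 with the replicate block and 386 with the block and without replicate 1. Called lower in the same settings were 236 without a filter, 104 with DESeq2, 90 with DESeq2 and the block, 24 with limma-voom, 18 with the block and 216 with the block and without replicate 1. Leaving out 1 library gave 2 (without GFPpos replicate 3) to 63 (without GFPneg replicate 1) higher and 1 to 29 lower, and leaving out a replicate gave 8 to 42 higher and 9, 17 and 68 lower without replicates 1, 2 and 3.

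The median log2 fold change of the tested histone genes (1.79) ranged from 1.29 without GFPneg replicate 3 to 5.45 without GFPneg replicate 2, and was 4.52 without replicate 2. In these last cases many members are at 0 in the GFPneg libraries left, and their fitted values depend on the prior count. The log2 ratio of the H2A class means was 1.12, and 1.97 without Hist2h2ac, an alternative chosen after seeing the data. The class sums moved by less than 1 SD under each scaling tried and without members that overlap another gene, which left no H2A gene and so gave no H2A value.

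Hist2h2ac turned from -0.47 to 0.20 with library size only, 0.53 with DESeq2 and the replicate block, 1.11 with limma-voom, 0.55 with the replicate block, 1.57 with the block and without replicate 1, 1.09 without GFPneg replicate 1 and 0.84 without replicate 1. Hist1h2bc turned from -0.08 to 0.56 with either block on 6 libraries, 1.05 without GFPneg replicate 2, 0.21 without GFPpos replicate 1 and 1.09 without replicate 2. For the block without replicate 1, without GFPneg replicate 1 and without replicate 1, H3f3b turned to -0.083, -0.11 and -0.11, H2afy to -0.090, -0.013 and -0.091, and Npat to -0.10, -0.15 and -0.11. Atrx turned from -0.22 to 0.14 with library size only, 0.040 with the block and without replicate 1 and 0.036 without replicate 1. Over single libraries left out, the values ranged from -1.12 to 1.09 for Hist2h2ac, -0.48 to 1.05 for Hist1h2bc, -0.11 to 0.95 for H3f3b, -0.013 to 0.68 for H2afy and -0.15 to 0.60 for Npat. The cause was not tested. Depth limits the set most in GFPneg replicate 1, where 4 members held 3 or more counts.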
